A study of Mus musculus with 3 samples.

Results

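The 10 genes Ly6a, Ly6c1, Cd34, Cd248, Thy1, Pdgfra, Pdgfrb, Eng, Vcam1 and Nt5e encode surface proteins that are used to recognise and sort stromal progenitor cells. They were found on the arrays through the RefSeq transcript that each probe is assigned to, which gave 15 probes of 41174, with 2 probes for each of 5 genes. The genes were proposed because ratios of these same arrays were known, among them those of Ly6a and Cd248, so their values are given as a description with no test. Primary mouse embryonic fibroblasts from E12.5 embryos were compared between a genotype labelled SA1-null, lacking the cohesin subunit that Stag1 encodes, and wild type. The cells were untreated and grown with 10% serum. By the channel labels, each of 3 arrays held RNA of 1 SA1-null culture in Cy3 and of 1 wild-type culture in Cy5. The labels call the arrays biological replicates. No dye was swapped, so genotype and dye cannot be told apart. The sources used here do not name the strain, the disrupted part of Stag1 or any shared litter.

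The targeted gene went against the labels. The brightest Stag1 probe read 1334, 1263 and 2029.5 in the Cy3 channel labelled SA1-null and 388, 161 and 167.5 in the Cy5 channel labelled wild type, a log2 ratio of 3.52 ± 0.21 (SD, n = 3). The other Stag1 probes had mean ratios of 3.53, 2.17 and 0.59, the last with Cy5 above background on 0 arrays. The sample titles name KO before WT, and the deposited log2 table ran as Cy5 over Cy3. Every direction below is therefore that of the channel labels, as Cy3 over Cy5, and turns over if they were exchanged. The cultures did carry the defining genes of fibroblasts: all 20 markers on the array cleared the background threshold on every array in Cy3 and in Cy5. Pdgfra and Pdgfrb, which are not on that list, did so as well. Markers of other cell types were detected too. Of 20 endothelial markers 9 were well above background on all arrays in Cy3 and 10 in Cy5, and 2 (Pecam1 and Tie1) were dark in both dyes on every array. Of 11 epithelial markers 5 were so in Cy3 and 6 in Cy5, and 5, Epcam among them, were dark in both.

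These proteins belong to several families. Ly6a (Sca-1) and Ly6c1 are small proteins of the Ly6 family that a glycosylphosphatidylinositol (GPI) anchor holds in the membrane, and Sca-1 marks mesenchymal and blood stem cells in the mouse. Thy1 (CD90) and Nt5e (CD73, the enzyme that makes adenosine outside the cell) have GPI anchors as well. Pdgfra and Pdgfrb are the receptor tyrosine kinases for platelet-derived growth factor, which drives fibroblast growth and migration. Eng (endoglin, CD105) is a co-receptor for ligands of the BMP and TGF-beta family, and Vcam1 (CD106) binds the integrin that Itga4 and Itgb1 form. Cd248 (endosialin) is a C-type lectin-like protein of mesenchymal cells, and Cd34 is a sialomucin found on blood progenitors, endothelium and many stromal cells.

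The sequence just upstream of the start site is shown for 3 of the genes with ratios above 0 and for Cd34, the gene furthest on the other side, to let the regulatory regions be read beside the values. RefSeq promoter sequences of GRCm38.p6 were matched by symbol for 5 of the 10 genes. Capitals mark motifs found by a search of both strands with overlaps allowed. These were TATAAA, known as the TATA box, the CCAAT box, and GGGCGG, which Sp1 binds. The form TTCNNNGAA, bound by STAT factors, and AGGAA, the core bound by Ets factors, were also searched. Each run is the 250 bases before the start, written in the direction of the gene.
Ly6c1 (chr15:75048838-75049087, minus strand): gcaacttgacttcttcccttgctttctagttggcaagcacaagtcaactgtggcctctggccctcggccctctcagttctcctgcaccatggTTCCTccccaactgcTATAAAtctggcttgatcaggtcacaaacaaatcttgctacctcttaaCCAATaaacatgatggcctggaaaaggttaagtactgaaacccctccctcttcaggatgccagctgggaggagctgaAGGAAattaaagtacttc
Pdgfra (chr5:75152001-75152250, plus strand): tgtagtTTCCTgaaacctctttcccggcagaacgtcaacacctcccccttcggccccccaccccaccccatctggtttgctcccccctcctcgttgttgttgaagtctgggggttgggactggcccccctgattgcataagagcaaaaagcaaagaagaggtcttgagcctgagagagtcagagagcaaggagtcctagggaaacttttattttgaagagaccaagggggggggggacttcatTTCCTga
Eng (chr2:32646345-32646594, plus strand): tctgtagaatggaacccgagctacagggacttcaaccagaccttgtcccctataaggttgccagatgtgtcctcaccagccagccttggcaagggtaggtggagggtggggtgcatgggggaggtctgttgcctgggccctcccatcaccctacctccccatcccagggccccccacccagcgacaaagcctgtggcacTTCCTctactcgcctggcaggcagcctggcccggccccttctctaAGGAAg
Cd34 (chr1:194938571-194938820, plus strand): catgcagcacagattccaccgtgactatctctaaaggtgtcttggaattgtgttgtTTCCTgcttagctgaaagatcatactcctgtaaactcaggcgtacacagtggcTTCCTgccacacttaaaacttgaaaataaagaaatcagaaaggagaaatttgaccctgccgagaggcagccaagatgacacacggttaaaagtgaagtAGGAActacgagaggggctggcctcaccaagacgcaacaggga
The AGGAA core stood in each of these 4 windows, 2 times for Ly6c1, Pdgfra and Eng and 3 times for Cd34, and 60.3% of the 32851 promoters of the table hold it. The Ly6c1 window also had 1 TATAAA, which 12.4% of promoters hold, and 1 CCAAT, which 33.8% hold. TTCNNNGAA, present in 7.02% of promoters, was in none of the 4, and neither was GGGCGG, present in 32.7%. GGGCGG did occur 4 times upstream of Nt5e (not shown), and AGGAA occurred 0 times there. The Nt5e window had a GC content of 72.0%, against 62.4% for Eng, 54.4% for Pdgfra, 48.4% for Ly6c1 and 46.4% for Cd34. The median over all promoters was 52.4%. A second Ly6c1 start in the table held neither TATAAA nor CCAAT.

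Across the arrays, 61.3% to 67.7% of spots were well above background in either dye, and no spot was saturated by the files' flags. Uncorrected Cy5 signals were the brighter, with median log2 ratios of Cy3 over Cy5 of -1.47, -0.92 and -0.65 on replicates 1, 2 and 3. The log2 ratios given below are after loess, which takes out this dye difference along the intensity range, so a gene can have the larger uncorrected signal in Cy5 and a ratio above 0. Replicate 1 lay on a slide of its own and replicates 2 and 3 on another. Of 18488 genes and transcripts tested with limma, 58 (0.314%) passed an adjusted p of 0.05, with 56 (0.303%) higher in the wild-type-labelled and 2 (0.0108%) higher in the SA1-null-labelled channel. Among those were 12 of the 20 measured macrophage markers.

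Of the 10 surface marker genes, 7 had ratios above 0 on all 3 arrays (Ly6a, Ly6c1, Cd248, Pdgfrb, Pdgfra, Eng and Vcam1), 2 had ratios below 0 on all 3 (Cd34 and Nt5e) and Thy1 had mixed signs. Over all genes tested, 13.3% were above 0 on all arrays and 19.1% below 0 on all, and 45.6% had a mean above 0. The median of the 10 genes was 0.70 on the log2 scale, with array medians of 1.06, 0.57 and 0.62, and the median of all genes was -0.02. Median centring instead of loess put the 10 genes at a median of 0.32 and all genes at -0.30, a distance of 0.62. All 10 genes passed the filter on dim probes, and 14 of their 15 probes did. Because the genes were chosen from this contrast, nothing is read from these counts. In bulk RNA a smaller share of cells that carry a marker and less RNA of it per cell cannot be told apart.

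**Figure D1:**
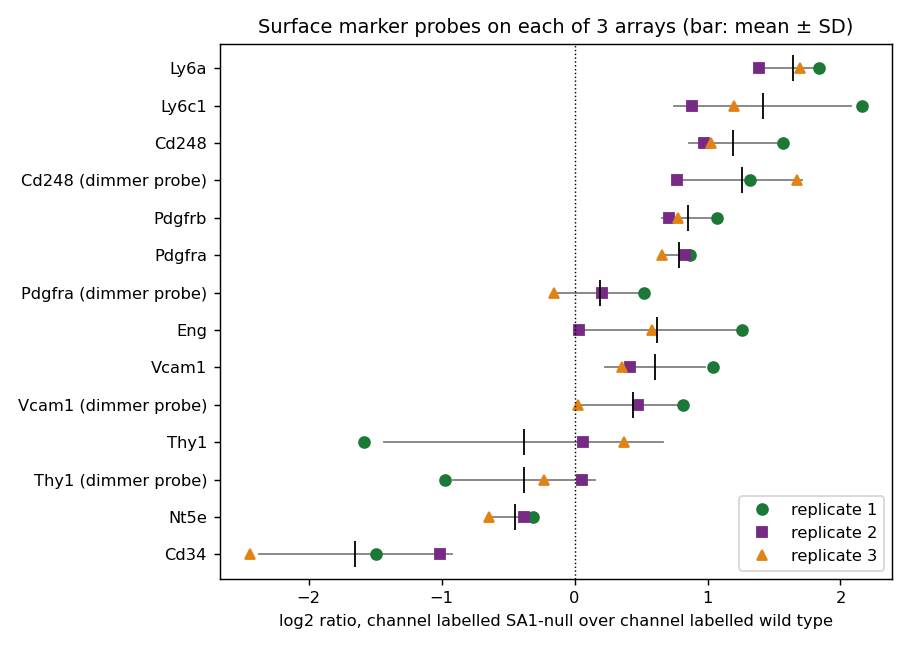
Log2 ratio of the SA1-null-labelled over the wild-type-labelled channel (horizontal axis) for the 14 kept probes of the 10 genes, with a symbol for each of the 3 arrays, the mean as a vertical tick and 1 SD as a line. Ly6a, Ly6c1, Cd248 and both Pdgf receptor genes lie to the right of 0 on every array at their brightest probes, Cd34 lies to the left, and Thy1 is pulled to the left by replicate 1.

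Ly6a had the highest ratio of the 10 toward the SA1-null-labelled channel. Cd34, described below, was as far from 0 on the other side and would take that place if the labels were exchanged. The single Ly6a probe read 1963.5, 681.5 and 1234.5 in the SA1-null-labelled channel of replicates 1, 2 and 3. It read 1740, 506 and 383 in the wild-type-labelled channel, all before any correction. After background correction and loess the log2 ratios were 1.84, 1.38 and 1.70, a mean of 1.64 ± 0.23 (SD, n = 3) or 3.12-fold. The 3 normalized levels of one label did not overlap with those of the other. Among 18488 genes ordered by mean ratio, Ly6a stood at rank 18 from the top of the SA1-null-labelled side.

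Ly6c1, which marks monocytes, endothelium and some fibroblasts, was dimmer. Its probe read 418, 147.5 and 225 in the SA1-null-labelled channel and 257.5, 141 and 111 in the other, the last only 2.04 times its local background. The log2 ratios were 2.16, 0.88 and 1.20, a mean of 1.42 ± 0.66 (SD, n = 3), with replicate 1 well above the others and no overlap of the normalized levels. The ratio of this dim probe was larger where no offset was added to the signals, at 1.87, and with Agilent's processed signals, at 1.94. Ly6c2, a near-identical neighbour of monocytes, had no probe matched here, so a part of this signal that belongs to it could not be separated.

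Other members of the Ly6 cluster on chromosome 15 had mean ratios nearer to 0. Ly6i, the gene next to Ly6a in the RefSeq order, was at 0.55 ± 0.39 (SD, n = 3) and Ly6f at 0.20 ± 0.30. Both were dim, with mean log2 intensities of 7.41 for Ly6i and 6.45 for Ly6f, against 9.86 for Ly6a and 7.76 for Ly6c1. The part of the added offset in the ratios of these dim probes was not tested. Ly6e, a broadly expressed member on the other side of Ly6i, had ratios of -0.50, -0.13 and 1.36, so that its sign depended on the array. Of the 17 measured genes of the Ly6 and uPAR domain family other than the 10, 0 passed in limma (2 at an unadjusted p under 0.05, both above 0), and their median was 0.08. Lynx1, a modulator of acetylcholine receptors, was at 0.57 ± 0.30, and Cd59a, an inhibitor of complement, was at -0.95 ± 1.43 with most of that from replicate 1 (-2.60). The differences between these genes and Ly6a were not tested.

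Ly6a is known to respond to interferon. Of 22 measured interferon-induced genes 16 were below 0, 12 of which had that sign on every array, and 6 were above 0. Their median was -0.17, where 45.6% of all genes were above 0, and 0 passed in limma (8 at an unadjusted p under 0.05, all below 0, against 953 below 0 of all 18488 genes). Their summed level overlapped between labels, at 28510 to 67780 in the SA1-null-labelled channel and 25720 to 72120 in the other. The immunoproteasome subunit Psmb8 was at -1.76 ± 0.30 (limma adjusted p = 0.0577) and the chemokine Cxcl10 at -1.52 ± 0.30.

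Cd248 was among the brightest of the probes and its 2 probes gave like ratios. The brighter one read 35854, 36005.2 and 38300.5 in the SA1-null-labelled channel and 42407.5, 40237.5 and 29701.6 in the other. All 6 of these signals had been taken from the low-gain scan and scaled up, per the files' flags. The log2 ratios were 1.57, 0.97 and 1.03, a mean of 1.19 ± 0.33 (SD, n = 3) or 2.28-fold, and the levels of the labels did not overlap. The second probe, read at the normal gain, gave 1.32, 0.77 and 1.68, a mean of 1.26 ± 0.45. With median centring the mean was 0.52, which lay 0.82 above the median of all genes there.

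Cd34 went the other way and by as much as Ly6a. Its probe read 3472, 615 and 404 in the SA1-null-labelled channel against 33095.3, 2507.5 and 2411 in the wild-type-labelled one. On 1 array the wild-type-labelled signal had been scaled up from the low-gain scan. The log2 ratios were -1.50, -1.01 and -2.44, a mean of -1.65 ± 0.73 (SD, n = 3) or 3.13-fold. The normalized levels of the labels overlapped, because both channels of replicate 1 stood above those of the other arrays. On each array by itself the wild-type-labelled channel was the brighter.

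Markers of the cell types in which Cd34 is also found were set beside it. Of 7 measured blood progenitor markers 5 were below 0, with a median of -0.37. Their summed level ran from 1792 to 2590 in the SA1-null-labelled channel and from 2256 to 3041 in the other, and Slamf1 was not well above background on any array. Cd48, a surface protein of leukocytes, was at -1.45 ± 0.12 (limma adjusted p = 0.0579), with its other probe at -0.915. Tal1, a factor of blood and endothelial progenitors, was at -1.75 ± 0.75 with the SA1-null-labelled channel above background on 2 of 3 arrays. Gata2, 1 of the 2 blood progenitor markers above 0, had ratios of 1.82, 0.04 and -0.09, and its other probe had a mean of 0.785. The 10 measured endothelial markers had a median of 0.06. Kdr, a receptor for vascular endothelial growth factor, had ratios of -2.83, -0.32 and -0.27, and Emcn, an endothelial sialomucin, was above 0 on all arrays (0.81 ± 0.66). Their summed level ran from 4054 to 7255 in the SA1-null-labelled channel and from 3616 to 8694 in the other. The part of these cell types in the Cd34 ratio was not tested.

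Relatives and ligands of Cd34 and Cd248 were mostly above 0. Of 13 measured genes 10 were above 0, with a median of 0.22, and 0 passed in limma (2 at an unadjusted p under 0.05). Thbd (thrombomodulin), of the same lectin-like group as Cd248, had ratios of 3.48, 1.51 and 0.24, a mean of 1.74 ± 1.63, an SD nearly as large as the mean. Col1a1, a collagen gene and the source of a Cd248 ligand, was at 1.15 ± 0.72, and is also among the fibroblast markers. Cd93, the endothelial and myeloid member of that group, had ratios of 0.74, -1.59 and -2.15, and its other probe had a mean of -0.138.

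Both Pdgf receptor genes had ratios above 0 on all 3 arrays. Pdgfrb read 17713, 12971.5 and 16547 in the SA1-null-labelled channel and 29067.7, 16646.5 and 13668 in the other, and its log2 ratios were 1.07, 0.71 and 0.78. The mean was 0.85 ± 0.19 (SD, n = 3) or 1.81-fold, with no overlap of levels. On 1 array the wild-type-labelled Pdgfrb signal had been scaled up from the low-gain scan. The brighter Pdgfra probe read 1719.35, 358.15 and 465.65 in the SA1-null-labelled channel and 3035.85, 385.95 and 305.5 in the other. Its ratios of 0.87, 0.83 and 0.66 gave a mean of 0.79 ± 0.11 (SD, n = 3) or 1.73-fold. Levels of the labels overlapped for Pdgfra, again because replicate 1 was brighter in both channels, while the ratio had the same sign on each array. With median centring the means were 0.27 for Pdgfrb and 0.47 for Pdgfra, and with the mean over both its probes that of Pdgfra was 0.49.

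The brighter Pdgfra probe was printed in 10 spots on each array, which gives the spread of its ratio between spots of 1 array. Differences from labelling, dye, hybridisation or the choice of probe are not part of that spread. Without outlier spots, 10, 7 and 10 remained. The SD between spots was 0.04, 0.05 and 0.07 on replicates 1, 2 and 3, and the lowest spot of all was at 0.57. The SD between the array means was 0.11. The second Pdgfra probe was close to background, at 1.19 to 1.90 times the local background in Cy3 and 1.18 to 1.30 times in Cy5, and its ratios were 0.53, 0.21 and -0.16.

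Of 24 measured genes of PDGF ligands and signalling 14 were above 0, with a median of 0.08 and array medians of -0.32, -0.04 and 0.44, and 0 passed in limma (2 above 0 and 1 below 0 at an unadjusted p under 0.05). The ligand Pdgfb, with Cy3 well above background on 2 of 3 arrays, was at -0.90 ± 0.86 and the ligand Pdgfd at -0.44 ± 0.25. The adaptor Shc1 was at 0.79 ± 0.49.

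Eng had a ratio near 0 on replicate 2. Its probe read 312, 286.5 and 606 in the SA1-null-labelled channel and 377, 559.5 and 414.5 in the other, which gave log2 ratios of 1.26, 0.03 and 0.58. The mean was 0.62 ± 0.61 (SD, n = 3), a spread as wide as the value, and the levels of the labels overlapped. With array weights the mean was 0.26, with median centring 0.38, and without replicate 1 it was 0.31. Of 24 measured partners of endoglin and readouts of BMP or TGF-beta signalling, 11 were above 0, with a median of -0.01, and 0 passed in limma (1 on each side at an unadjusted p under 0.05). The co-receptor Tgfbr3 was at 0.49 ± 0.36 and the inhibitor Smad6 at 0.69 ± 0.36. The target gene Id2 was at -0.71 ± 0.57 (other probe -0.4) and the receptor Tgfbr1 at -0.84 ± 0.85 (other probe -0.08).

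Vcam1 was above 0 with both probes. The brighter probe read 2740, 2580 and 3539 in the SA1-null-labelled channel and 4338.5, 3856 and 3211 in the other, and gave log2 ratios of 1.04, 0.42 and 0.36. The mean was 0.61 ± 0.38 (SD, n = 3) or 1.52-fold. The levels did not overlap, but only narrowly: the lowest in the SA1-null-labelled channel was 11.76 and the highest in the other 11.72. With median centring the mean was 0.17, and without replicate 1 it was 0.39. The dimmer probe gave 0.81, 0.48 and 0.02, a mean of 0.44 ± 0.40, and its levels overlapped.

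Other adhesion receptors included several below 0. Of 18 measured genes 10 were above 0 with a median of 0.02, and 0 passed in limma (4 at an unadjusted p under 0.05, all below 0). Icam1, which like Vcam1 binds leukocyte integrins, was at -0.62 ± 0.03, with the SA1-null-labelled channel above background on 1 of 3 arrays. The adhesion molecule genes Cadm1 (-1.21 ± 0.73) and Nrcam (-1.39 ± 1.04), both also known from neurons, were furthest below 0 on replicate 1 (-1.99 and -2.58).

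Thy1 was the member whose sign depended on 1 array. Its brighter probe read 14504.5, 36950.5 and 51153.3 in the SA1-null-labelled channel and 153775, 78860.9 and 67478.4 in the wild-type-labelled one. The signals of the latter had been scaled up from the low-gain scan on all 3 arrays, and those of the former on 2 of 3. The log2 ratios were -1.58, 0.06 and 0.37, a mean of -0.38 ± 1.05 (SD, n = 3), and without replicate 1 the mean was 0.22. The second probe, with no scaled signals, gave -0.98, 0.06 and -0.23, and differed in sign from the first on replicate 3. Levels of the labels overlapped for both probes.

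Thy1 is also abundant in neurons, and 3 neural markers stood apart on replicate 1. The neural stem cell genes Sox2 and Nes had ratios of -4.68 and -4.62 there, against 0.21 and -0.06 for Sox2 and -0.09 and 0.20 for Nes on replicates 2 and 3. Stmn2, a gene of neurons, had -2.47, 0.18 and 0.35. Among the 7 measured neural markers, the neuronal genes Tubb3, Elavl4 and Map2 were between 0.16 and 0.48 on replicate 1, and Dcx and Elavl3 were not well above background on any array. The summed level of the list ran from 3085 to 15090 in the SA1-null-labelled channel and from 11580 to 29000 in the other. Markers of T lymphocytes, which also carry Thy1, had 5 measured genes with a median of -0.07, and Cd3d, Cd3g and Cd247 were not well above background on any array. That median rests on dim probes. The summed level of the 5 ran from 560.5 to 676.1 in the SA1-null-labelled channel and from 601 to 716.2 in the other. Of 11 T lymphocyte markers on the array, 2 were well above background on all arrays in Cy3 and 5 in Cy5. Without replicate 1 the median of the 7 neural markers was 0.07, against -0.17 with it. The part of neural cells in the Thy1 ratio was not tested.

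Nt5e was below 0 by a small amount on each array. The probe used read 625.5, 89 and 86 in the SA1-null-labelled channel and 2492, 228 and 182 in the other, and the log2 ratios were -0.32, -0.38 and -0.64. The mean was -0.45 ± 0.17 (SD, n = 3) or 1.36-fold, and the levels overlapped. With median centring the mean was -0.71. The second probe did not clear the background threshold in the SA1-null-labelled channel on any array and did so in the other on 1 of 3, and no ratio is given for it.

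Of 17 measured genes that handle nucleotides and adenosine outside the cell, 10 were above 0 with a median of 0.04, and 0 passed in limma (1 above 0 and 2 below 0 at an unadjusted p under 0.05). Enpp1, which splits ATP, was at -0.74 ± 0.26. Entpd1 (CD39), which supplies the AMP that Nt5e cleaves and is also found on leukocytes, was at -1.04 ± 0.76, with its other probe at -0.484. The adenosine transporter Slc29a1 was at 1.18 ± 1.03, with 2.30 on replicate 1.

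The machinery that attaches GPI anchors, on which Ly6a, Ly6c1, Thy1 and Nt5e all depend, lay close to 0. Of 25 measured genes 15 were above 0, all means were between -0.35 and 0.34, and 0 passed in limma (0 at an unadjusted p under 0.05). The ends of that range were Pigt, a subunit of the enzyme that attaches the anchor (-0.35 ± 0.87), and Pigm, a mannosyltransferase of anchor synthesis (0.34 ± 0.06).

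**Figure D2:**
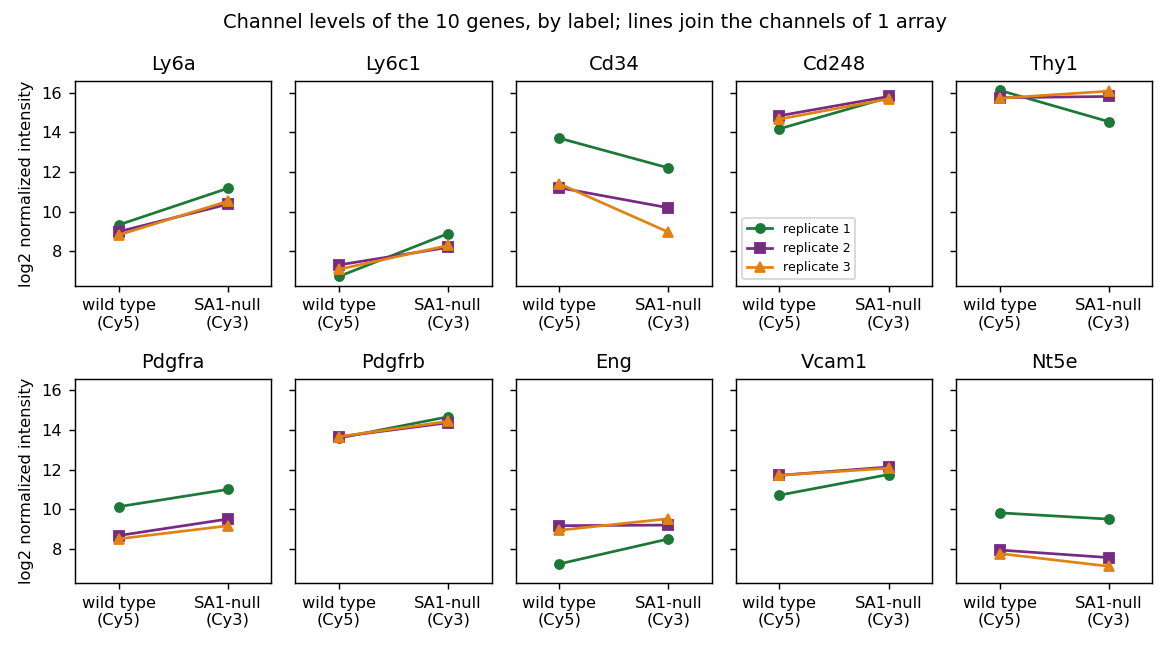
Log2 normalized intensity (vertical axis) of the brightest probe of each of the 10 genes in the wild-type-labelled and the SA1-null-labelled channel, with a line joining the channels of each of 3 arrays. Replicate 1 stands apart in both channels for Cd34, Pdgfra and Nt5e, where it is higher, and for Eng, where it is lower, while levels of Cd248 and Pdgfrb lie close together between arrays.

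Levels of several of these genes differed between arrays irrespective of the label. Replicate 1 lay on a slide of its own, so culture and slide cannot be told apart for it. After loess and quantile normalization of mean intensity, Cd34 stood at 13.71 on the log2 scale in the wild-type-labelled channel of replicate 1, against 11.21 and 11.41 on replicates 2 and 3. The same channel had 9.83 against 7.95 and 7.78 for Nt5e, 10.14 against 8.68 and 8.52 for Pdgfra, and 7.25 against 9.18 and 8.95 for Eng. The SA1-null-labelled channel followed for each of these genes. Pdgfrb, in contrast, had 13.60, 13.66 and 13.67 in the wild-type-labelled channel and 14.67, 14.37 and 14.44 in the other. With the ranges of the 3 levels as the measure, Ly6a, Ly6c1, Cd248, Pdgfrb and, narrowly, Vcam1 did not overlap between labels. That is 5 of 10 genes, all higher in the SA1-null-labelled channel. Among all genes tested 2.89% were apart in that direction and 6.05% in the other.

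**Figure D3:**
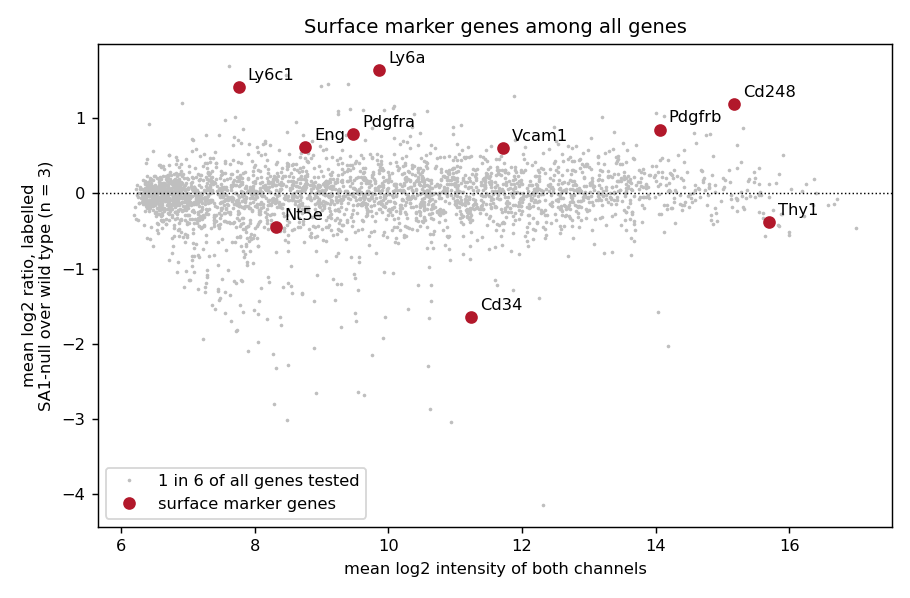
Mean log2 ratio over 3 arrays (vertical axis) against mean log2 intensity of both channels (horizontal axis) for the 10 surface marker genes in red and for a sample of all genes tested in grey. Ly6a, Ly6c1 and Cd248 lie on the upper edge of the cloud at different intensities, and Cd34 lies in its lower part at -1.65.

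Further stromal surface markers, none of them among the 10, had a median of 0.16. The 10 genes were chosen with ratios of these arrays known, so nothing is read from their larger median. Of the 41 further markers measured, 26 were above 0 and 12 were so on every array. In limma 0 of them passed (5 above 0 and 1 below 0 at an unadjusted p under 0.05). Ackr3, a scavenging chemokine receptor, was at 0.86 ± 0.22, the complement inhibitor Cd55 at 0.68 ± 0.23, and the mesenchymal cadherin gene Cdh11 at 0.97 ± 0.60, with other probes at 0.46 and 0.36. Bst1 (CD157), found on stromal and myeloid cells, was at -1.43 ± 0.58, with the SA1-null-labelled channel above background on 2 of 3 arrays. Over the 201 companion genes of all 9 lists, 113 were above 0 and 0 passed in limma, where 0.314% of all genes did (13 above 0 and 17 below 0 at an unadjusted p under 0.05, against 431 and 953 of all genes). The medians of 7 of these lists were above 0 with loess and fell below 0 with median centring, to between -0.36 and -0.03, where the median of all genes was at -0.30.

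Of the 20 fibroblast markers on the array, Vim and S100a4 had no probe with a ratio on all 3 arrays once outlier spots were left out. All 18 measured fibroblast markers had means above 0, but only 9 of them were above 0 on every array. Their median was 0.64, with array medians of 1.19, 0.37 and 0.88, and 0 passed in limma (7 at an unadjusted p under 0.05). The collagen genes Col3a1 (1.17 ± 0.60, other probe 0.587) and Col6a1 (1.65 ± 0.98) and the mesenchymal factor Prrx1 (0.86 ± 0.45) were among them. The matrix proteoglycan genes Dcn (1.47, -0.51 and -0.12) and Lum (3.36, -0.19 and -1.04), picked out after their values were seen, were above 0 on replicate 1 only. The median turned to -0.01 with median centring, 0.29 above the median of all genes there. Their summed level ran from 479200 to 1176000 in the SA1-null-labelled channel and from 361800 to 576500 in the other.

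Macrophage markers stood far on the other side. All 20 measured were below 0 on all 3 arrays, with a median of -2.88, and 12 were called in limma, where 0.303% of all genes were called in that direction. The list was written with earlier results of these arrays known. Tyrobp, a signalling adaptor of myeloid cells, was at -3.15 ± 0.15 and the lysozyme gene Lyz1 at -3.62 ± 0.23 (limma adjusted p = 0.0273 for both). The summed level ran from 9044 to 42490 in the SA1-null-labelled channel and from 79070 to 484600 in the other, and no macrophage marker was dark in both. The part of macrophage RNA in the ratios of the surface marker genes was not tested. Pericyte and smooth muscle markers had a median of -0.08 over 10 genes, epithelial markers -0.02 over 6 and skeletal muscle markers -0.18 over 4, and 0 of these passed in limma (1, 2 and 0 at an unadjusted p under 0.05).

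**Figure D4:**
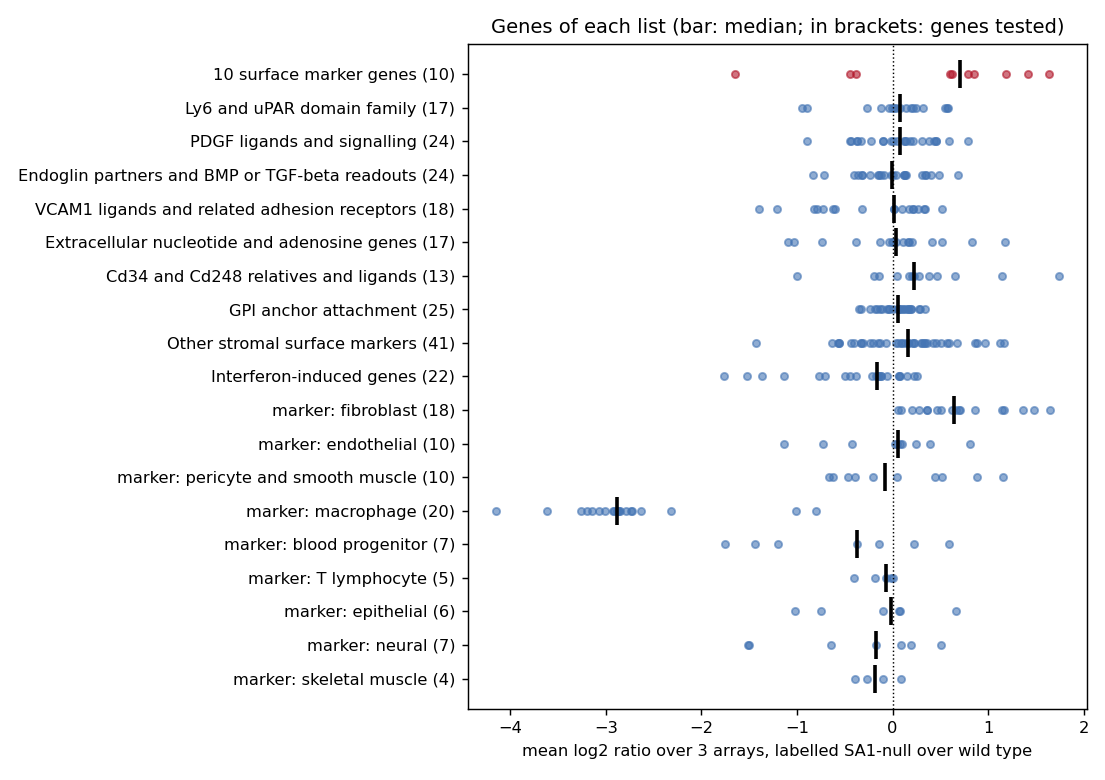
Mean log2 ratio over 3 arrays (horizontal axis) of each measured gene of each list, 1 point a gene, with the list median as a bar and the number of genes in brackets. The 10 surface marker genes (red) spread from -1.65 to 1.64 around a median of 0.70, the fibroblast markers lie above 0 and the macrophage markers centre on -2.88.

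Genes with array ratios most like those of Ly6a and Cd248 were sought among all genes with a symbol, by the root mean square difference of the 3 log2 ratios. The nearest to Ly6a was Pxylp1, a phosphatase of proteoglycan synthesis, at a difference of 0.40 (2.15, 1.74 and 2.21), followed by Pck2 (0.45), Ptn (0.50), Ecm1 (0.51) and Klf4 (0.51). No gene lay within 0.2 of Ly6a. The nearest to Cd248 was the matrix gene Sned1, at a difference of 0.14 (1.33, 1.03 and 0.99), then Raet1e (0.20), Dkk3 (0.20), Ecm1 (0.22) and Emp1 (0.23), and 4 genes or transcripts lay within 0.2 of it. Likeness over 3 arrays describes these values only.

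**Figure D5:**
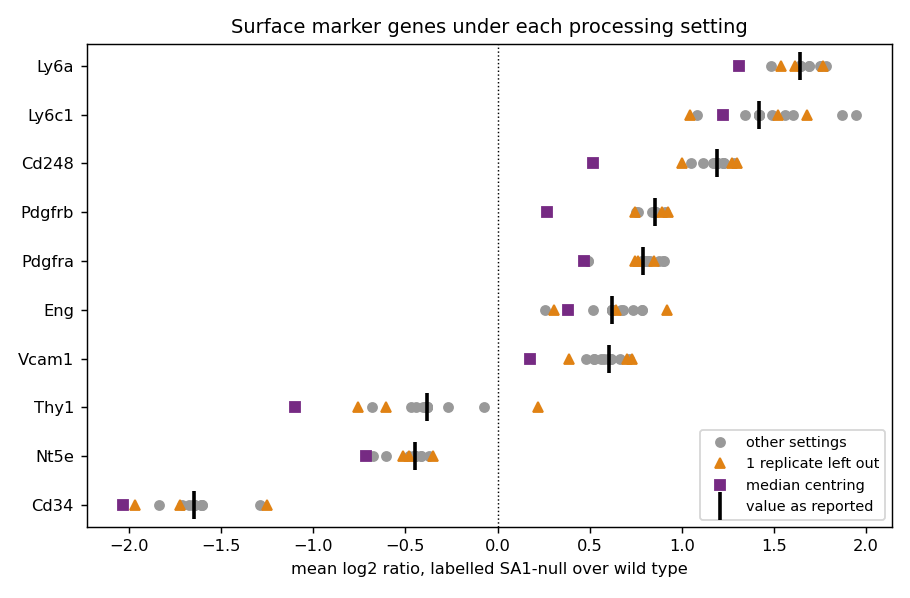
Mean log2 ratio (horizontal axis) of each of the 10 genes as reported (black bar), with each replicate left out (triangles), with median centring in place of loess (squares) and under the other settings (circles). Thy1 changes sign without replicate 1, none of the other 9 genes does under these settings, and median centring gives the lowest value for 8 of the 10.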

How the data were processed

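The authors deposited scanner files from Agilent Feature Extraction 10.1.1.1 (replicate 1) and 10.7.3.1 (replicates 2 and 3), as their headers state. Each spot has intensity values of signal and local background in either dye, per the file headers. A log10 ratio that the authors deposited beside them equals Cy5 over Cy3 of the processed intensity for most spots, and was not used. The deposited log2 table was made with limma, per the submitters' processing notes, with version and settings not given in the sources used here. Against the ratios computed here its values ran as Cy5 over Cy3 (r = -0.985, -0.982 and -0.997 with Cy3 over Cy5, medians -0.02, -0.02 and -0.01), and its centring stays unknown. The sample titles name KO before WT, and whether they give the order of this ratio was not tested.

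Median spot signals were background-corrected (normexp, offset 50) and loess-normalized with limma 3.58.1 in R 4.3.3, leaving out control spots and outlier spots (116, 125 and 207). Of 41174 probes, 24117 were well above background in 1 dye on all 3 arrays. The brightest with a ratio on all 3 arrays stood for each of 18488 genes or transcripts. Of these, 12027 had a symbol from the RefSeq table of GRCm38.p6. The array design names another assembly, so that table gave names and gene order only. Mean ratios were tested against 0 with lmFit and eBayes and adjusted by Benjamini-Hochberg (threshold 0.05). The test was tried on simulated data. The number of arrays (3) limits the precision. Levels in either channel are after loess and Aquantile normalization.

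The genes, the lists and the naming rule (the 10 genes, Stag1, in each list called genes or up to 4 with the smallest p, and 5 nearest genes each for Ly6a and Cd248) were chosen with earlier results of these data known. Not all genes the rule allows are named, and single list members outside it (Ly6e, Ly6f, Pigt, Dcn, Lum and further neural genes) were named after their values were seen. Alternatives were other background corrections, signals, normalizations, filters, probe rules, variance models, the slide, and each replicate left out. Figures were drawn with matplotlib 3.10.9. 1 neural marker is not reported by name here.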

Additional observations from a re-analysis of the deposited data

How the results depend on the processing

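Over 16 alternatives besides leaving out arrays, all 10 genes kept the sign of their ratio, Thy1 at -1.10 to -0.08. Ly6a ran from 1.31 to 1.78, Ly6c1 from 1.08 to 1.94, Cd248 from 0.52 to 1.28, Pdgfra from 0.47 to 0.90, Pdgfrb from 0.27 to 0.91, Eng from 0.26 to 0.78, Vcam1 from 0.17 to 0.71, Nt5e from -0.71 to -0.37 and Cd34 from -2.03 to -1.29. Leaving out 1 replicate gave Thy1 values of -0.76 to 0.22, positive without replicate 1. The median of the 10 genes was 0.32 with median centring, and 0.57 to 0.84 with 1 replicate left out. The 58 called genes of the whole series became 118 with no background subtraction, 265 with an offset of 0, 281 with processed signals, 34 with median centring, 160 with scale normalization, 92 with both channels above background, 113 with an intensity trend, 185 with array weights, 1772 with the slide as a term (spread from 1 slide only), 132 at an adjusted p under 0.1, and 0 with no filter on dim probes (1982 at an unadjusted p under 0.05). Each array ratio pairs its 2 samples, and without that replicate block, with the channels as separate samples, 102 were called. Leaving out 1 replicate gave 0 to 284 calls: 0 without replicate 2 and without replicate 3 (1294 and 736 at an unadjusted p under 0.05 in limma). The cause of these shifts was not tested. Signal was near background for the second Pdgfra probe on all arrays (at most 1.90 times it) and low for Nt5e on replicates 2 and 3 (2.70 to 4.47 times).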

Other observations

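Y chromosome genes separated replicate 1 from the others in both channels. Ddx3y, an RNA helicase gene, read 1633 in Cy3 and 6320 in Cy5 on replicate 1, against 32 and 29 in Cy3 and 57 and 52.5 in Cy5 on replicates 2 and 3. Eif2s3y, a translation factor gene, read 1797.5 and 8643.5 on replicate 1 and no more than 31.5 in Cy3 and 53 in Cy5 on the others. Both were well above background on replicate 1 only, and within that array their log2 ratios were -0.24 and -0.55. Among the surface marker genes the same array stood apart in level for Cd34, Pdgfra, Nt5e and Eng. Slide, software version and these signals changed together there and cannot be told apart.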
